A study of Callithrix jacchus with 20 samples.

Results

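The nuclear genes for the subunits of the oxidative phosphorylation machinery were followed through cloned and fertilized marmoset embryonic stem cells and the embryoid bodies (EBs) grown from them. A gene was taken where its symbol stood in both deposited expression tables and began with NDUFA, NDUFB, NDUFC, NDUFS, NDUFV, UQCR, COX4 to COX8 or ATP5, or was SDHA, SDHB, SDHC, SDHD or CYC1, with the NDUFAF assembly factors left out. The rule gave 65 of the 21184 genes that the tables share. They comprised 35 genes of complex I, 4 of complex II, 3 of complex III (UQCR10, UQCRQ and CYC1), 6 of complex IV (COX4I2, COX6A2, COX8A, COX8C, NDUFA4 and NDUFA4L2) and 17 of the ATP synthase, complex V. Other nuclear subunits of complexes III and IV were not analysed here.

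The samples were 20 poly(A) RNA libraries of the common marmoset. Control ESCs were 4 wildtype lines, #13 and #37 from natural fertilization (NAT) and #15 and #17 from in vitro fertilization (IVF), and control EBs came from #13, #17 and #37. The ntESCs were derived by somatic cell nuclear transfer (SCNT), in which the nucleus of an ear fibroblast replaces that of the oocyte: wildtype (WT) lines #30, #53 and #61, and lines #24, #50, #54 and #55 from donors carrying a CAG-EGFP transgene (GFP), with EBs (ntEBs) from #30, #53, #61, #24 and #50. One library held wildtype donor fibroblasts. The SCNT embryos of both genotypes received Kdm4d mRNA (1500 ng/µL), trichostatin A (25 nM for 8 h) and a G9a inhibitor (1 µM for 24 h), and no fertilized line did, so cloning and these treatments cannot be told apart. EBs were cultured for 30 days. Control ESCs were at passages 7 to 21 and ntESCs at passages 5 to 10, and line #54 carried a translocation when examined after 11 passages. A replicate was 1 line, lines may share a donor, and the CAG-EGFP transgene, which is driven by a promoter active in most cells, came with other donors than WT, so transgene and donor cannot be told apart.

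Oxidative phosphorylation passes electrons from NADH through complex I, or from succinate through complex II, to complexes III and IV, and the proton gradient that results drives the ATP synthase. Complexes I, III, IV and V are built from subunits of both genomes, and the mitochondrial genome of a cloned line comes from the oocyte while its nuclear subunit genes come from the donor fibroblast. Pluripotent stem cells are known for relying largely on glycolysis, and differentiation is known to be accompanied by a shift towards respiration.

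The values were TPM, which count transcripts per gene length and are fixed to the same total in each library, so that they keep no sequencing depth. A change in TPM is relative to all other RNA in the library, and in bulk samples a smaller number of cells of a type and less RNA per cell cannot be told apart. The summed TPM of 10 pluripotency markers lay between 7895 and 9808 in control ESCs and between 7003 and 9722 in ntESC GFP, but at 4314 and 3944 in ntESC WT #30 and #53. It lay between 42.6 and 232 in 7 of the 8 EB libraries and at 5996 in ntEB GFP #24. Of these markers, none was at 0 in both ntEB GFP libraries, PRDM14 was at 0 in every ntEB WT library, and 7 of the 10 were at 0 in the fibroblasts. The summed TPM of 10 fibroblast markers was 2046 and 1618 in ntESC WT #30 and #53 and between 411 and 922 in the other 9 stem cell lines, all with FAP at 0. Between EBs it ran from 1826 in ntEB WT #61 to 40426 in ntEB WT #30, against 43563 in the fibroblasts.

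The subunit genes were abundant and steady. Together they took between 1.07% and 2.27% of all TPM in a library. Of the 65, 51 had a mean between 100 and 1000 TPM over the 19 stem cell and EB libraries, and NDUFA4 and ATP5F1B were above 1000. The members under 10 TPM were 3 tissue isoforms of complex IV, COX4I2, COX6A2 and COX8C, and NDUFA4L2. With the highest mean TPM in their complex stood NDUFB9, an accessory subunit of complex I (588 TPM), SDHB, the iron-sulfur subunit of complex II, UQCR10, a small subunit of complex III, NDUFA4, a subunit first assigned to complex I and now to complex IV (1326 TPM), and ATP5F1B, the catalytic beta subunit of the ATP synthase (1167 TPM). The median standard deviation between lines of 1 group on the log2(TPM + 0.1) scale was 0.094 for the members in control ESCs, against 0.23 for all genes tested. It was 0.27 against 0.51 in ntEB WT, the group with the widest spread among the members. All genes tested reach down to a mean of 0.5 TPM, and no reference of genes as abundant as the members is given. NDUFA10 had the widest spread in control ESCs, from 1.71 TPM in line #15 to 14.5 TPM in #37.

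**Figure D1:**
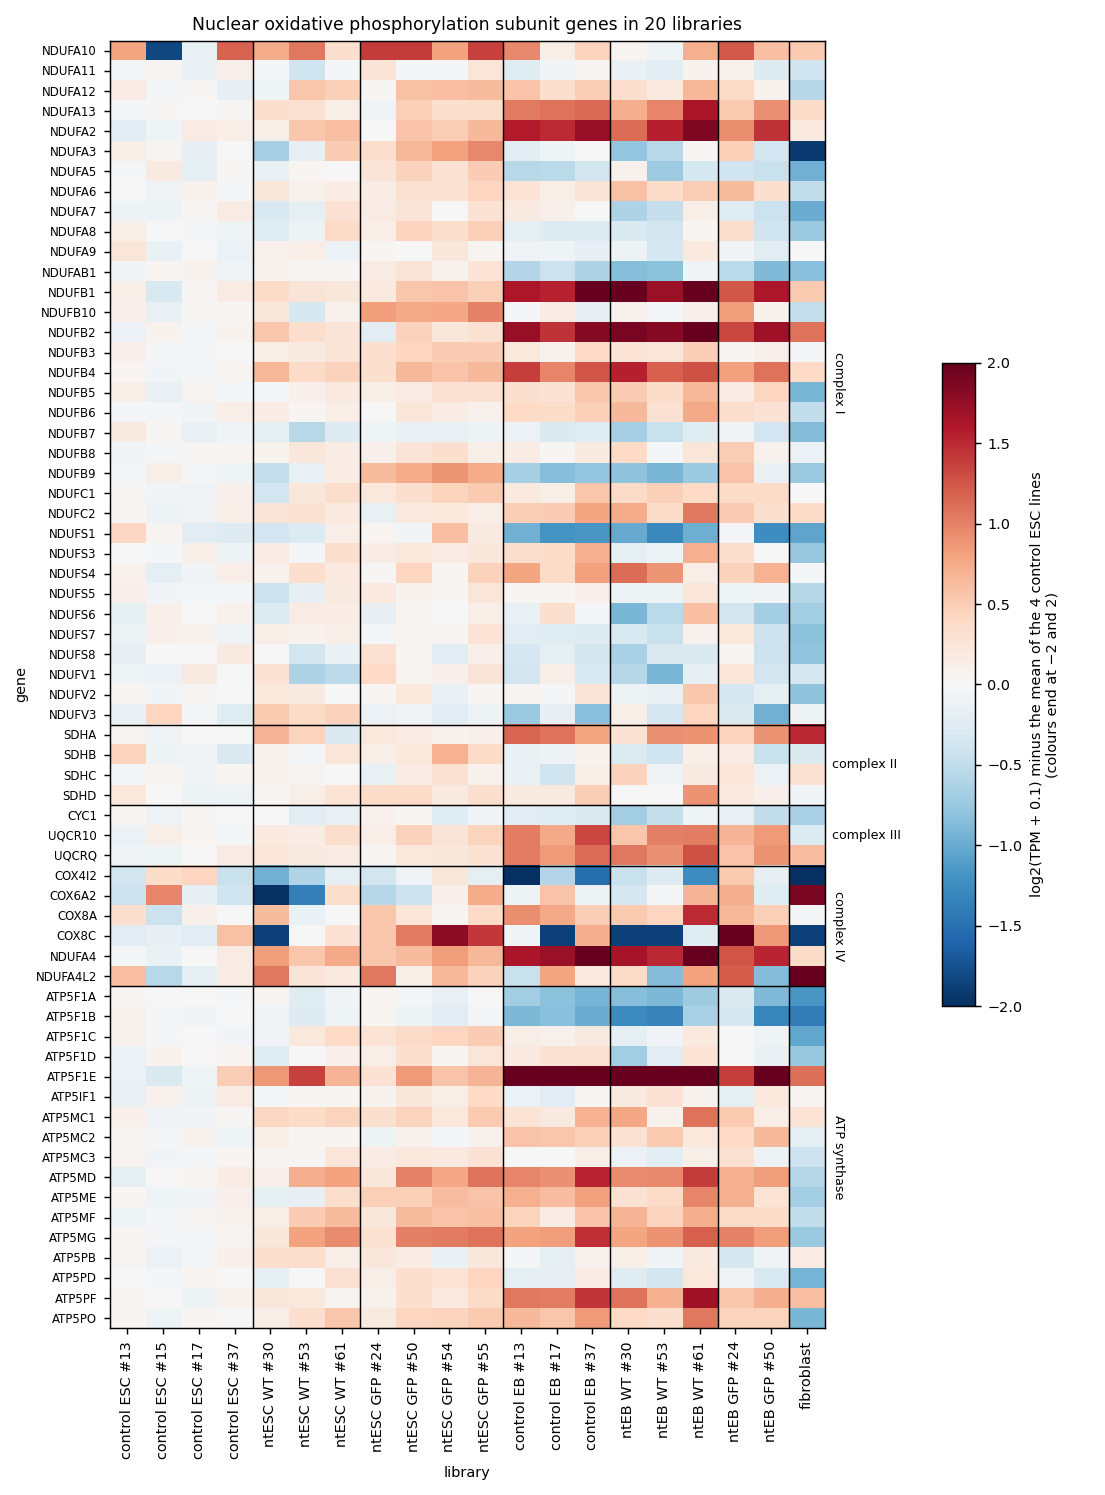
Level of 64 of the 65 genes (rows, grouped by complex) in each of the 20 libraries (columns), as log2(TPM + 0.1) minus the mean of the 4 control ESC lines, with red above and blue below that mean. The EB columns hold deep red rows (ATP5F1E, NDUFA4, NDUFB1, NDUFB2) and blue rows (NDUFS1, ATP5F1A, ATP5F1B) side by side, and ntEB GFP #24 is paler in both.

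The comparison of EBs with the stem cells they came from asked how the subunit genes move with differentiation. In control lines the largest rises were those of the small subunits ATP5F1E, NDUFA4, NDUFB1 and NDUFB2, while NDUFS1 of the complex I core and ATP5F1A and ATP5F1B of the ATP synthase head fell. Of 64 members tested, 24 rose and 9 fell in control EBs (limma, adjusted p under 0.05). Over all 16545 genes tested 56.6% were called, 20.7% higher and 35.9% lower. In 28 of 63 members all control EBs lay above all control ESCs and in 12 below, as did 25.7% and 41.9% of all genes. The median log2 fold change was 0.13 over the members and -0.28 over all genes. Quantile normalization, which moved the median of all genes by 0.19, gave 36 higher and 6 lower members. The higher share of the called members went from 72.7% to 85.7%. The shares of all genes called under it are not given here, so this change is not read as a result about the members. No called member turned direction in any of the 3 EB comparisons with quantile normalization or median scaling.

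Complex I takes up NADH through a matrix arm whose catalytic core is nuclear-encoded. In control EBs 11 of its 35 members rose and 6 fell (median log2 fold change 0.09), in WT lines, compared below, 9 rose and 4 fell (median -0.02), and in GFP lines 4 rose and 6 fell (median -0.22).

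NDUFS1, the iron-sulfur subunit that carries electrons along the matrix arm, had 255, 199, 165 and 160.3 TPM in control ESC #13, #15, #17 and #37 and 97.8, 83.7 and 85.0 TPM in control EB #13, #17 and #37. All EB libraries lay below all ESC libraries. NDUFS1 fell by 1.11 on the log2 scale (SE 0.24, limma adjusted p = 0.0012). NDUFS3, another core subunit of that arm, had 163 to 189 TPM in the ESCs and 221, 225 and 285 TPM in the EBs (log2 fold change 0.47, SE 0.18, limma adjusted p = 0.032). That call was lost in 4 of the 19 fits that each left out 1 library (without control ESC #13, #15 or #37 or control EB #37, highest limma adjusted p 0.15) and with the line as a block (limma adjusted p = 0.068).

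NDUFB1, a small accessory subunit of the membrane arm, had 135, 102, 127 and 139.6 TPM in the 4 control ESC lines and 382, 361 and 503 TPM in the control EBs. NDUFB2, from the same arm, went from between 60.7 and 69.1 TPM to 219, 179 and 235 TPM. NDUFA2, an accessory subunit of the matrix arm, went from between 38.3 and 49.4 TPM to 133, 124 and 149 TPM. The groups did not overlap for any of these genes, and their log2 fold changes were 1.72 (SE 0.16) for NDUFB1, 1.67 (SE 0.16) for NDUFB2 and 1.60 (SE 0.20) for NDUFA2, with limma adjusted p-values of 1.8e-06, 1.8e-06 and 1.3e-05. NDUFB4 (log2 fold change 1.21) and NDUFA13 (1.09), also called GRIM-19, rose too. Among the accessory subunits that fell were NDUFAB1, the mitochondrial acyl carrier protein (-0.55), and NDUFB9 (-0.77), which went from between 547 and 625.03 TPM to between 319 and 364 TPM. NDUFV3, a small accessory subunit that sits by NDUFV2 in the NADH-binding module, had 14.8 to 23.5 TPM in the ESCs and 10.4, 15.7 and 9.72 TPM in the EBs, so that the groups overlapped. Its limma adjusted p of 0.037 was lost without control ESC #15 or #17 or control EB #13 or #37 (up to 0.15), and was 0.09 with quantile normalization, 0.067 with median scaling and 0.15 with the line as a block. NDUFV2 itself differed by less than the spread, at 335 to 355 TPM against 340.4 to 415 TPM.

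Complex II is wholly nuclear-encoded and also serves the tricarboxylic acid cycle. SDHA, its flavoprotein, rose from 65.2, 59.8, 62.2 and 63.2 TPM in control ESCs to 140.2, 132 and 108 TPM in control EBs (log2 fold change 1.01, SE 0.20, limma adjusted p = 0.00061), with no overlap. SDHB had 194, 133, 138 and 117 TPM in the ESCs and 130.3, 133 and 149.98 TPM in the EBs, within the same range. SDHB, SDHC and SDHD had log2 fold changes of -0.06, -0.14 and 0.28, none past the threshold. Of complex III, UQCR10 (186, 218, 206 and 197 TPM in ESCs, 409, 339 and 507 TPM in EBs) and UQCRQ (125 to 149 TPM, 272, 239.9 and 289 TPM) rose by log2 fold changes of 1.04 and 1.00, and both were higher in every EB than in every ESC library. CYC1, the cytochrome c1 subunit with the heme, was lower in every EB library, at 203, 199.8 and 194 TPM against 226 to 244 TPM, but its log2 fold change of -0.26 did not pass the test (limma adjusted p = 0.11).

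NDUFA4 showed the second-highest rise of the members. It had 576, 537, 592 and 664 TPM in control ESC #13, #15, #17 and #37 and 1842, 1950.2 and 2346 TPM in the control EBs, a 3.44-fold difference (log2 fold change 1.78, SE 0.19, limma adjusted p = 3.8e-06). The groups lay far apart. COX8A, the widely expressed form of its subunit, had 210.3, 125, 179.9 and 169 TPM in the ESCs and 318, 285 and 236 TPM in the EBs (log2 fold change 0.72, SE 0.25, limma adjusted p = 0.022), a call lost without control ESC #15 or control EB #13 or #17 (highest limma adjusted p 0.085) and with the line as a block (0.094). COX4I2, known in human and rodents as the lung-enriched, oxygen-responsive form of subunit 4, fell by 1.43 on the log2 scale (SE 0.42, limma adjusted p = 0.0089), but from levels of only 0.824, 1.44, 1.49 and 0.775 TPM to 0.159, 0.688 and 0.319 TPM. The COX4I2 call was lost without control EB #13 (limma adjusted p = 0.063) and with the line as a block (0.061).

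In the ATP synthase, 8 members rose and 2 fell. ATP5F1A and ATP5F1B, the alpha and beta subunits that form the catalytic head, were the 2 that fell. ATP5F1B had 1588, 1468, 1448 and 1499 TPM in control ESC #13, #15, #17 and #37 and 804, 839 and 750 TPM in control EBs (log2 fold change -0.91, SE 0.19, limma adjusted p = 0.00079). ATP5F1A had 609.7, 585, 585 and 577 TPM and then 363, 333 and 308 TPM (log2 fold change -0.82, SE 0.13, limma adjusted p = 6.6e-05). ATP5F1E, the small epsilon subunit of the central stalk, moved the other way and furthest of all members, from 239, 211, 244 and 363 TPM to 1498, 1399 and 1705 TPM (5.91-fold, log2 fold change 2.56, SE 0.24, limma adjusted p = 1.7e-06). All 3 genes were without overlap between ESCs and EBs. The other risers were subunits of the peripheral stalk and membrane part, ATP5PF (log2 fold change 1.17), ATP5MD (1.14), ATP5MG (1.03), ATP5ME (0.72), ATP5PO (0.68), ATP5MC2 (0.54) and ATP5MF (0.39). The ATP5MF call was lost without control ESC #13 or control EB #13 or #37 (highest limma adjusted p 0.12) and with the line as a block (0.088).

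Of the 3 genes for the c-ring subunit, whose mature proteins are the same, only ATP5MC2 passed the test: it went from 338, 323, 344 and 309.9 TPM to 488, 484 and 458 TPM, while ATP5MC1 had 84.5 to 95.0 TPM against 101 to 143 TPM (limma adjusted p = 0.095) and ATP5MC3 had 235 to 254 TPM against 243 to 266 TPM. Whether the 3 genes differed in their change was not tested. ATP5IF1, the inhibitor of ATP hydrolysis, differed by -0.10 on the log2 scale, within its standard error of 0.12.

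**Figure D2:**
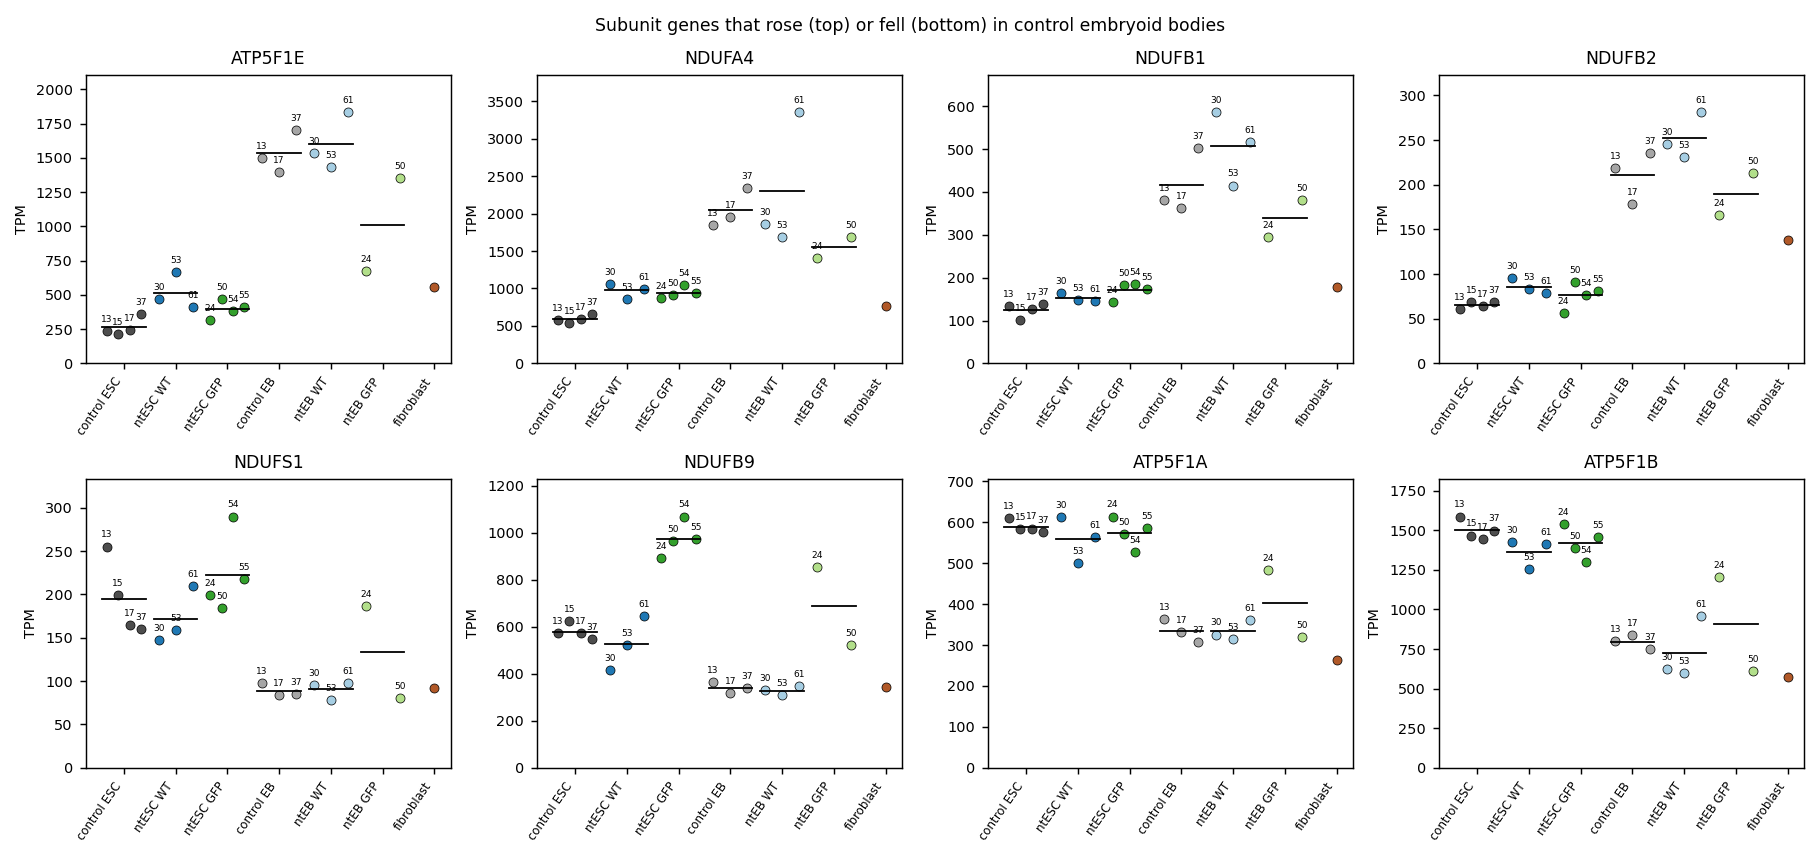
TPM per library of 4 genes that rose (top row) and 4 that fell (bottom row) in control EBs, with the group on the horizontal axis, 1 point per library labelled with its line number and a bar at the group mean. For ATP5F1E the control EBs sit between 1399 and 1705 TPM and the control ESCs between 211 and 363 TPM, and ntEB GFP #24 is the highest EB library in every panel of the bottom row (NDUFS1, NDUFB9, ATP5F1A and ATP5F1B).

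The same comparison in the WT clones used no library of the control lines, although all were fitted together. In ntEB WT 16 members rose and 6 fell against ntESC WT (limma, 64 tested), where 46.4% of all genes were called, 14.3% higher and 32.1% lower. In 18 of 63 members all ntEB WT lay above all ntESC WT libraries and in 5 below, as did 14.2% and 32.2% of all genes. The median log2 fold change was 0.07 over the members and -0.33 over all genes. Of the 16, 15 had also risen in control EBs, the other being NDUFA6 (log2 fold change 0.33, lost without ntESC WT #53 or #61 or ntEB WT #30). All 6 that fell had fallen there too. The same overlap over all genes is not given, so this is not read as particular to the members. Quantile normalization, which moved the median of all genes by 0.25, gave 29 higher and 4 lower. Median scaling, which moved it by 0.24, gave 26 and 4. The shares of all genes called with these scalings are not given.

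NDUFB1 had 163, 149 and 147 TPM in ntESC WT #30, #53 and #61 and 586, 415 and 518 TPM in the ntEBs of these lines (log2 fold change 1.71, SE 0.17, limma adjusted p = 7.1e-06). ATP5F1E went from 469, 663 and 414 TPM to 1535, 1433 and 1833 TPM (log2 fold change 1.66, SE 0.25, limma adjusted p = 0.00011), and NDUFB2 from 96.0, 83.4 and 78.7 TPM to 245, 231 and 281 TPM (log2 fold change 1.55, SE 0.17, limma adjusted p = 1.1e-05). Each EB library was above each stem cell library for the 3 genes. The deepest falls were those of ATP5F1B, from 1427, 1258 and 1415 TPM to 621, 597 and 960 TPM (log2 fold change -0.94, SE 0.20, limma adjusted p = 0.0015), NDUFS1, from 147, 159 and 209 TPM to 95.3, 78.5 and 97.7 TPM (-0.91, SE 0.26, limma adjusted p = 0.0097, 0.06 with quantile normalization), and ATP5F1A, from 614, 500.3 and 564 TPM to 326, 314 and 360.4 TPM (-0.74, SE 0.13, limma adjusted p = 0.00041). None of these overlapped either. NDUFA4 rose to 1860.4, 1685 and 3353 TPM from 1059, 865 and 996 TPM (log2 fold change 1.18, SE 0.20, limma adjusted p = 0.00026), with line #61 far above the other EBs. Without ntEB WT #61 the count of members that fell was 11 in place of 6 and that of members that rose 15, beside 33.5% and 16% of all genes.

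In the GFP clones, with 2 EB lines, 8 members rose and 10 fell (limma, 64 tested) beside 29.8% of all genes, 13.6% higher and 16.2% lower. In 15 of 65 members both ntEB GFP lay above all ntESC GFP libraries and in 16 below, as did 23% and 24.1% of all genes. The median log2 fold change was -0.12 over the members and -0.12 over all genes. All 8 that rose were among the risers of both the control and the WT comparison (ATP5F1E, ATP5MC2, NDUFA2, NDUFA4, NDUFB1, NDUFB2, NDUFB4 and UQCRQ). Of the 10 that fell, 6 were among the fallers of both, with ATP5F1A, ATP5F1B, NDUFAB1, NDUFB9 and NDUFS1 among them. Here too the overlap over all genes is not given. With the line as a block, over the 16 libraries of lines with both stages, the counts were 5 and 1, and without the block over those libraries 5 and 2. The split turned with the scaling. Quantile normalization gave 15 higher and 3 lower, a higher share of 83.3% in place of 44.4%. Median scaling gave 4 and 15, a share of 21.1%. They moved the median of all genes by -0.06 and -0.12. Shares of all genes called are not given for these scalings or for the block.

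NDUFB2 had 56.3, 90.7, 76.7 and 80.9 TPM in ntESC GFP #24, #50, #54 and #55 and 166 and 213 TPM in ntEB GFP #24 and #50 (log2 fold change 1.32, SE 0.18, limma adjusted p = 0.0002). It was the 1 member called in each of the fits that left out 1 library. ATP5F1E rose from 315, 466.3, 385 and 412 TPM to 672 and 1352 TPM (log2 fold change 1.29, SE 0.27, limma adjusted p = 0.0031), and NDUFB1 from 143, 184, 186 and 174 TPM to 295 and 381 TPM (0.98, SE 0.18, limma adjusted p = 0.0017). Each EB library was above each stem cell library for these 3 genes. NDUFAB1, NDUFS1 and NDUFA5 fell most, by 0.91, 0.84 and 0.80 on the log2 scale, with limma adjusted p-values of 0.0021, 0.033 and 0.0035. NDUFAB1 had 328, 348, 305 and 351 TPM in ntESC GFP and 200.1 and 158 TPM in the ntEBs, and NDUFA5, an accessory subunit of the matrix arm, 212, 242, 215 and 251 TPM and then 134 and 130.2 TPM, both without overlap. NDUFS1 had 199, 184, 289.8 and 218 TPM in the stem cells but 187 TPM in ntEB GFP #24 and 80.7 TPM in #50, so that only line #50 lay below all stem cell lines. The NDUFS1 call was lost without ntESC GFP #54 or #55 or ntEB GFP #50 (limma adjusted p from 0.059 to 0.69) and with quantile normalization (0.097). With the line as a block the calls of NDUFS1 (limma adjusted p = 0.145) and NDUFA5 (0.058) were lost, and without ntEB GFP #50 so were those of NDUFAB1 (0.0757), NDUFA5 and NDUFB1 (0.0651 each) and ATP5F1E (0.141). ATP5F1B had 1207 TPM in ntEB GFP #24 and 610 TPM in #50, against 1299 to 1541 TPM in ntESC GFP. For NDUFS1 and ATP5F1B ntEB GFP #24 thus lay closer to the stem cells than #50, and it was the EB library with the pluripotency marker sum of 5996 TPM, whose part in the result was not tested. Without ntEB GFP #24 the counts were 9 higher and 15 lower, beside 42.9% of all genes called, and without ntEB GFP #50 they were 2 and 0, beside 3.4%. With line #24 left out at both stages, an alternative chosen after seeing the data, they were 8 and 14, beside 39.4%. Each of these fits left 1 ntEB GFP library, which was assumed to vary like the other groups.

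Taking each of the 8 lines with both stages alone, 17 members were higher and 7 lower in the EB library of all 8 lines, beside 15.6% and 24.2% of all genes. Among the 7 were NDUFAB1, NDUFB9, NDUFS1, NDUFV3, ATP5F1A and ATP5F1B. The log2 difference of ATP5F1E ran from 1.09 in line #24 to 2.65 in #13, that of NDUFB2 from 1.23 in #50 to 1.85 in #13, and that of NDUFA4 from 0.69 in #24 to 1.82 in #37. That of ATP5F1B ran from -0.35 in #24 to -1.20 in #30. Line #24 was thus the one with the smallest change for ATP5F1E, NDUFA4, NDUFS1, NDUFB9, ATP5F1A and ATP5F1B. The number of members at least 2-fold higher in the EB library ran from 3 in line #50 to 12 in line #13, and the number at least 2-fold lower from 0 in line #24 to 5 in line #53.

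**Figure D3:**
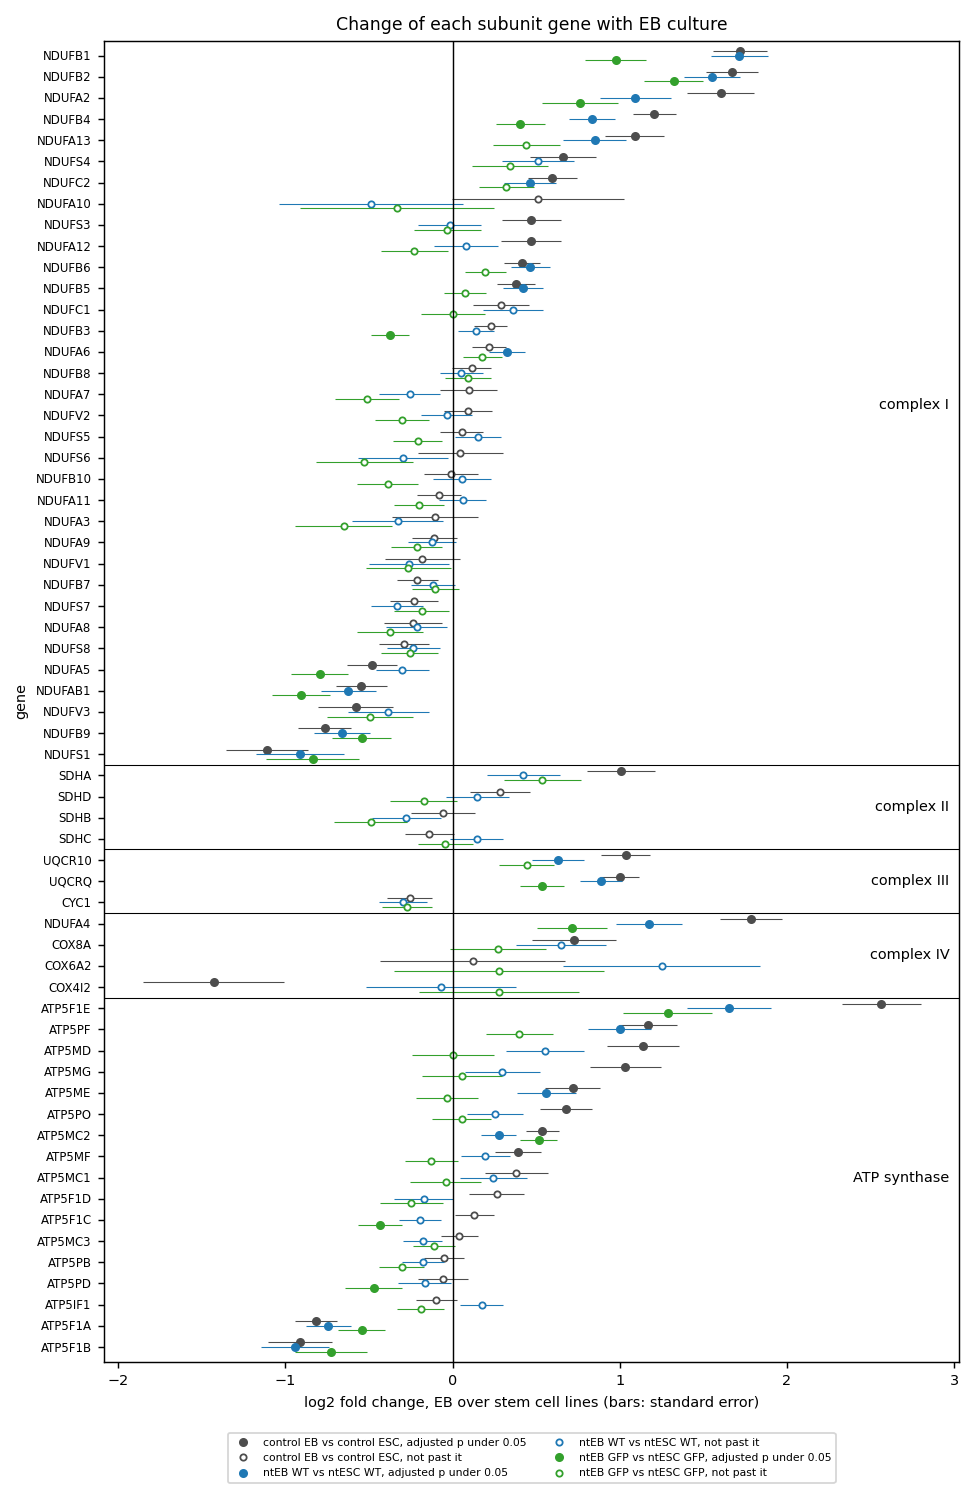
Log2 fold change of 62 members between EBs and stem cells (horizontal axis, bars give the standard error), grouped by complex, in control (grey), WT (blue) and GFP (green) lines, with filled points past an adjusted p of 0.05; COX8C is among those not drawn. ATP5F1E, NDUFB1 and NDUFB2 stand at the right and NDUFS1, ATP5F1A and ATP5F1B at the left in all 3 comparisons.

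Whether the response to EB culture differed between clones and controls was tested as an interaction. No member passed for WT (limma, 0 of 64, and 4 at an unadjusted p under 0.05, beside 0% of all genes called) or for GFP (0 of 64, and 19 at an unadjusted p under 0.05, beside 0.0181% of all genes called). The 2 interactions share the control libraries. No share of all genes at an unadjusted p is given beside the 4 and the 19. For WT the members with the smallest p were ATP5F1E (difference of the log2 fold changes -0.91, SE 0.34), ATP5MG (-0.74, SE 0.31) and NDUFA4 (-0.61, SE 0.27), all with a limma adjusted p of 0.73. For GFP they were NDUFB4 (-0.80, SE 0.19), NDUFB3 (-0.60, SE 0.15) and NDUFA4 (-1.07, SE 0.28), with limma adjusted p-values of 0.17, 0.17 and 0.19. Without ntEB WT #61, 4 members passed in WT with a difference below 0 (NDUFA4, NDUFS3, ATP5F1D and ATP5PO), beside 5.12% of all genes called, among them NDUFA4 with a difference of -0.92 (limma adjusted p = 0.016). In GFP 4 passed in that fit, also below 0 (NDUFA4, NDUFB3, NDUFB4 and ATP5PF), beside 3.5% of all genes. Without ntEB GFP #50, which leaves 1 library in that group, the GFP count was 9 beside 16.2% of all genes, with COX8C and ATP5F1A above 0 and NDUFA2, NDUFA4, NDUFB1, NDUFB3, NDUFB4, UQCRQ and ATP5F1E below 0.

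The TPM of the members was also summed per complex, with no test. A sum covers only the members of that complex taken here, not all of its subunits. Complex I summed to 6621 ± 129 TPM (SD, n = 4) in control ESCs and 7414 ± 368 TPM (n = 3) in control EBs, and complex V to 5983 ± 148 TPM and 7474 ± 593 TPM. Complex IV, of which NDUFA4 gave most, went from 769.5 ± 70.0 TPM to 2331 ± 225 TPM, a ratio of 3.03 that was 1.61 with NDUFA4 left out. What was then left was mostly COX8A, as COX4I2, COX6A2, COX8C and NDUFA4L2 had means under 10 TPM. The sum thus rests on NDUFA4 and COX8A and does not show a change of the complex. Complex III went from 572 ± 12.0 TPM to 884 ± 105 TPM and complex II from 427 ± 45.2 TPM to 497 ± 29.0 TPM. In ntEB GFP over ntESC GFP the ratio was 0.91 for complex I, 0.924 for complex II and 0.943 for complex V, and 1.19 for complex III and 1.57 for complex IV. The ratios of complexes II and V passed to the other side of 1, at 1.04 and 1.02, with SDHB and ATP5F1B, their most abundant members, left out. Among EBs, the library of line #61 held the highest sum of each complex but complex III, with 8618 TPM for complex I and 3834 TPM for complex IV, and also the highest sum of the 13 mitochondrial genome genes (14817 TPM, against 5694 to 10340 TPM in the other EBs).

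**Figure D4:**
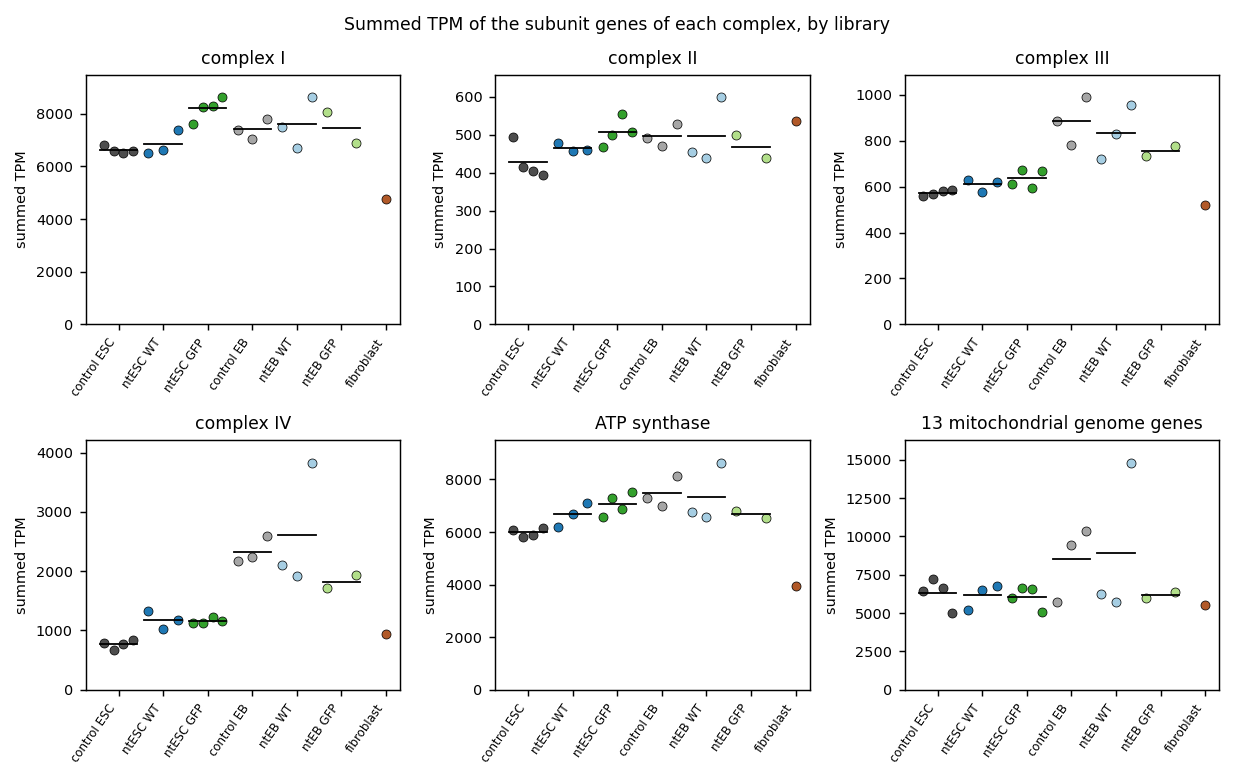
Summed TPM of the members of each complex and of the 13 mitochondrial genome genes, 1 point per library with a bar at the group mean. The EBs stand apart from the stem cells in complex IV, the 4 ntESC GFP lines lie between 7607 and 8627 TPM in complex I and above all control ESCs, and 1 ntEB WT library (line #61) is highest for complex IV and for the mitochondrial genes.

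Between stem cells, the comparison of ntESCs with control ESCs asked what cloning leaves behind. The WT and GFP comparisons share the 4 control libraries. NDUFA4 was higher in both kinds of clone, and in GFP clones 4 subunits of the membrane arm of complex I, NDUFB3, NDUFB4, NDUFB9 and NDUFB10, were higher as well. In ntESC GFP 5 of 63 members rose and 0 fell (limma, 33 at an unadjusted p under 0.05), where 0.223% of all genes were called higher and 0.217% lower, 0.441% in all. In ntESC WT 1 member rose and 0 fell (limma, 19 at an unadjusted p under 0.05), where 0.0186% were called higher and 0.0745% lower, 0.0931% in all. These shares of all genes stand at the adjusted threshold. None is given here for the unadjusted p, so the 33 and the 19 are not read as a result about the members. The median log2 fold change over the members was 0.21 in GFP and 0.11 in WT, and -0.00 and -0.01 over all genes. In 25 of 64 members all 4 ntESC GFP lines lay above all 4 control lines, and in 0 did all lie below, while 5.7% and 6.03% of all genes did so. In ntESC WT 16 of 63 members lay above and 3 below in this way (5.63% and 7.61% of all genes), with ATP5F1B and NDUFB7 among the 3.

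NDUFA4 had 576, 537, 592 and 664 TPM in control ESC #13, #15, #17 and #37, 1059, 865 and 996 TPM in ntESC WT #30, #53 and #61, and 872, 917, 1049.6 and 935 TPM in ntESC GFP #24, #50, #54 and #55. All 7 clones were above all 4 controls. The log2 fold change was 0.72 in WT (SE 0.10, limma adjusted p = 0.028) and 0.67 in GFP (SE 0.09, limma adjusted p = 0.016). In the fibroblast library NDUFA4 stood at 761 TPM, above the controls and below the clones. The WT call was lost in 6 of 11 fits with 1 library left out (without control ESC #13, #15 or #17, ntESC WT #30, or ntESC GFP #50 or #55, limma adjusted p up to 0.095) and with median scaling (0.093), and the GFP call in 5 of 11 (without control ESC #13, #15 or #17, or ntESC GFP #54 or #55, limma adjusted p up to 0.071).

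NDUFB9 had 571, 625.03, 571 and 547 TPM in control ESCs, 414, 521 and 644 TPM in ntESC WT, and 893, 963, 1068 and 971 TPM in ntESC GFP. NDUFB10, another membrane arm subunit, had 115, 97.1, 109 and 109 TPM, then 125, 86.4 and 114 TPM, then 192, 181, 183 and 213 TPM. For both genes the GFP lines lay above every control and WT line, while WT and control lines overlapped. Against controls the log2 fold change in ntESC GFP was 0.84 for NDUFB10 (SE 0.12, limma adjusted p = 0.014) and 0.75 for NDUFB9 (SE 0.12, limma adjusted p = 0.03). In the direct comparison of clones they were the 2 members called of 63 (beside 0.552% of all genes, 0.143% higher and 0.409% lower in WT), with WT below GFP by log2 fold changes of -0.84 for NDUFB10 (SE 0.12, limma adjusted p = 0.016) and -0.91 for NDUFB9 (SE 0.13, limma adjusted p = 0.013). Both calls were lost without ntESC GFP #55 (limma adjusted p = 0.06 and 0.055), the NDUFB10 call without ntESC GFP #24 (0.057) and the NDUFB9 call without ntESC WT #53 (0.066). In 1 of 65 members all WT lay above all GFP lines (NDUFV3) and in 9 below, as did 4.88% and 8.73% of all genes. Without ntESC WT #61 the clones differed in 15 members, 2 higher and 13 lower in WT, beside 12.8% and 13.4% of all genes. The fits without ntESC GFP #24 and without ntESC WT #53 each kept 1 of the 2 calls.

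At the EB stage NDUFB9 was at 854 TPM in ntEB GFP #24 and 520.4 TPM in ntEB GFP #50, against 364, 319 and 339 TPM in control EBs and 330.2, 308 and 347 TPM in ntEB WT. Both GFP lines were above all other EB libraries. NDUFB10 was at 191 TPM in ntEB GFP #24 but at 113 TPM in #50, within the 95.6 to 120.02 TPM of the controls. In the fibroblasts, which were wildtype, the 2 genes stood at 344 and 77.6 TPM, below all control ESCs.

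NDUFB4 had 311, 294, 295 and 316 TPM in control ESCs and 381, 474, 451 and 476 TPM in ntESC GFP (log2 fold change 0.55, SE 0.09, limma adjusted p = 0.035), and NDUFB3 had 162, 147, 147 and 150.1 TPM and 191, 204, 216 and 216 TPM (log2 fold change 0.45, SE 0.07, limma adjusted p = 0.03). The lines did not overlap in either. In ntESC WT these genes were at 483, 397 and 417 TPM and at 165, 172 and 182 TPM, also above all controls, with limma adjusted p = 0.094 for NDUFB4. None of the 5 GFP calls held in all 11 fits with 1 library left out: NDUFB9 and NDUFB4 were each lost in 7 of them, among them every fit without a control ESC line, and the count of calls ran from 0 (without control ESC #15 or ntESC GFP #55) to 7 (without ntESC WT #30). It was 2 without control ESC #13 or #37 or ntESC GFP #50, and 1 without control ESC #17 or ntESC GFP #54. The share of all genes called in each of these fits is not given, so these counts show only dependence on single lines. For WT the count was 8, with 5 higher and 3 lower, without ntESC WT #61, beside 7.9% and 10.1% of all genes: ATP5F1E, ATP5MC1, SDHA, NDUFA4 and NDUFB4 were higher, and NDUFB7 and COX6A2 were among the lower ones. The 2 lines left in that fit, #30 and #53, were those with the low pluripotency and high fibroblast marker sums. With these 2 lines left out instead, an alternative chosen after seeing the data, the counts were 0 for WT and 8 for GFP, beside 0.0993% and 0.856% of all genes. That fit left 1 ntESC WT library, which was assumed to vary like the other groups.

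**Figure D5:**
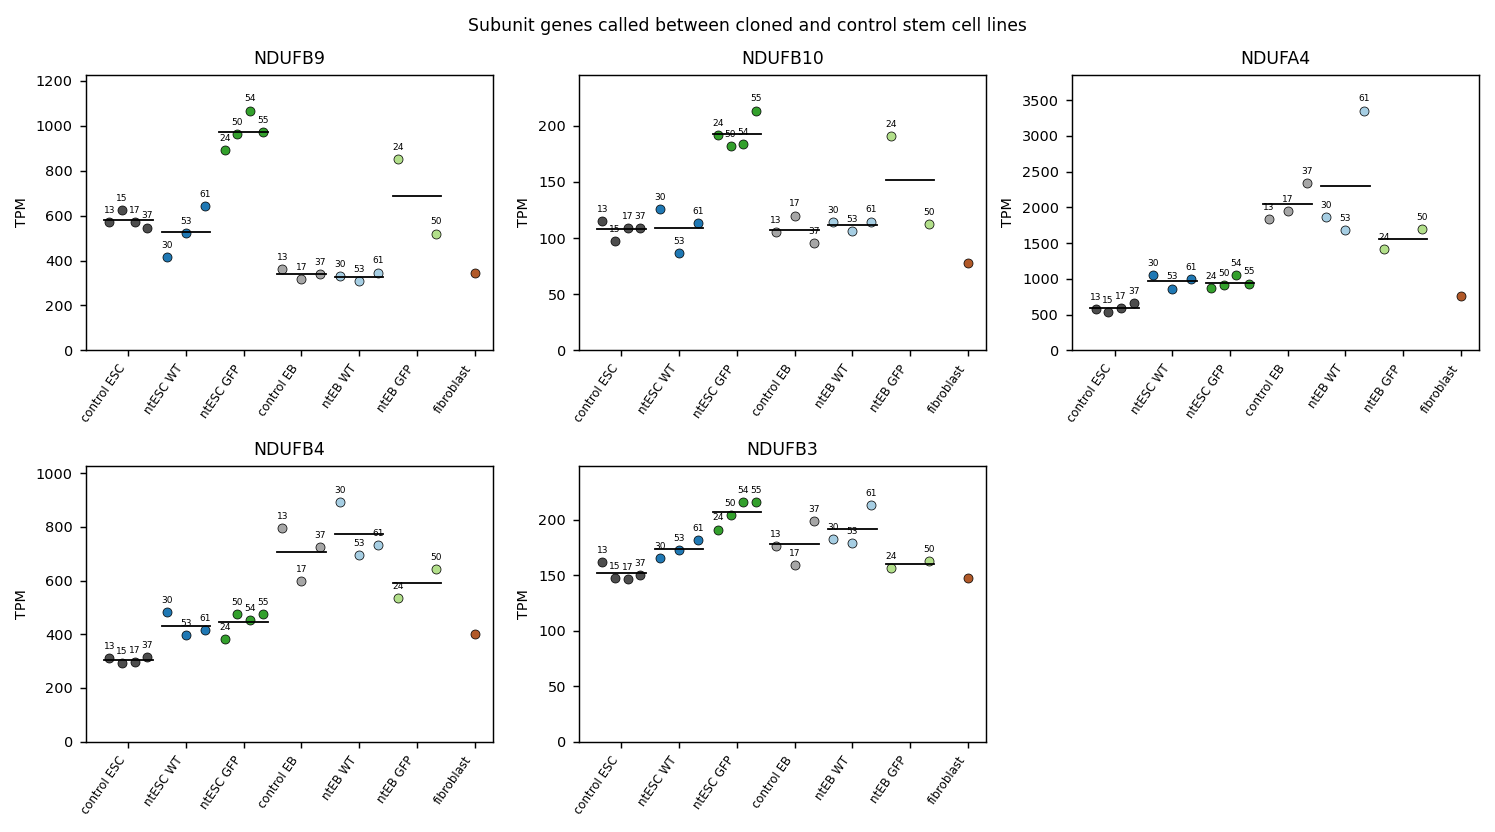
TPM per library of the 5 members called between cloned and control stem cell lines, with the group on the horizontal axis, 1 point per library labelled with its line number and a bar at the group mean. The ntESC GFP lines sit between 893 and 1068 TPM for NDUFB9 and between 181 and 213 TPM for NDUFB10, above all control and WT stem cell lines.

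Between EBs of clones and of controls no member was called. The shares of all genes beside these counts stand at the adjusted threshold only. For ntEB WT the count was 0 of 64 (limma, and 0 at an unadjusted p under 0.05), beside 0.00602% of all genes, and the median log2 fold change over the members was -0.00. ATP5IF1 and NDUFA6 were above all control EBs in all 3 lines and 0 of 63 members below, as were 4.61% and 5.26% of all genes. The smallest p-values were those of NDUFV3 (log2 fold change 0.65, SE 0.33), ATP5F1D (-0.48, SE 0.25) and NDUFA7 (-0.42, SE 0.23), with a limma adjusted p of 0.98 each. NDUFV3 was at 18.97, 13.8 and 23.6 TPM in ntEB WT #30, #53 and #61 and at 10.4, 15.7 and 9.72 TPM in control EB #13, #17 and #37, so that the groups overlapped. For ntEB GFP the count was 0 of 64 (limma, and 2 at an unadjusted p under 0.05), beside 0.012% of all genes, with the smallest p-values for NDUFB9 (log2 fold change 0.97, SE 0.23), COX8C (4.01, SE 1.60) and COX4I2 (1.61, SE 0.71), all with a limma adjusted p of 0.53. Without ntEB GFP #50, NDUFB9 (1.33, limma adjusted p = 0.022) and COX8C (6.76, limma adjusted p = 0.046) passed, beside 3.45% of all genes, in a fit where 1 ntEB GFP library was left and was assumed to vary like the other groups. In ntEB GFP, 15 of 64 members were below and 4 above all control EBs in both lines, beside 13.7% and 23.9% of all genes, and the 15 included NDUFA4, ATP5F1E and NDUFA2.

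The tissue isoforms stayed low. COX8C, known in human from testis, had at most 1.17 TPM in 19 of the libraries and 29.9 TPM in ntEB GFP #24, where COX8A stood at 267 TPM. COX6A2, the heart and muscle form of subunit 6A, had 2.93, 7.93, 3.56 and 3.01 TPM in control ESCs, 0.66, 1.48 and 5.11 TPM in ntESC WT and 2.65, 2.92, 4.29 and 6.72 TPM in ntESC GFP, and was highest in the fibroblasts (15.1 TPM). The striated muscle markers summed to 58.0 TPM in that library, with TNNT2, MYH6, MYL7 and CKM at 0. In the EBs COX6A2 had 3.13 to 6.64 TPM, and its log2 fold change did not pass in any of the EB comparisons with all libraries kept. It was higher in the EB library of all 8 lines, by 0.19 to 2.09 on the log2 scale, as were 15.6% of all genes. Without ntESC WT #61 it passed in ntEB WT against ntESC WT (log2 fold change 2.00, limma adjusted p = 0.0084). NDUFA4L2, a paralogue of NDUFA4 known as a target of hypoxia-inducible factors, had 0.127 to 0.858 TPM in the 19 stem cell and EB libraries and 3.11 TPM in the fibroblasts, and it was below the filter of the stem cell fit. COX4I2 was listed at 0 in the fibroblasts.

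The single fibroblast library was set beside the 4 control ESC lines, with no replicate and no test. Of 65 members 40 were below and 16 above all control lines, beside 51.7% and 34% of all genes, and the median log2 difference was -0.47 (-0.32 over all genes). Complex I summed to 4765 TPM and complex V to 3948 TPM, below every other library, while complex II stood at 536 TPM. ATP5F1B was at 573 TPM and ATP5F1A at 263 TPM, against at least 1448 and 577 TPM in control ESCs, while SDHA was at 179 TPM (59.8 to 65.2 TPM), ATP5F1E at 554 TPM (211 to 363 TPM) and NDUFB2 at 139 TPM (60.7 to 69.1 TPM). Of the 24 members that rose in control EBs, the fibroblast library was above all control ESCs for 11 and below them for 11. Of the 9 that fell, it was below all control ESCs for 8. Both comparisons use the same control ESC libraries, so part of this overlap is built in. The matching shares of all genes called in control EBs are not given, and the overlap is not read as a result. NDUFA3 stood below all control ESCs in the fibroblasts and above them in all ntESC GFP lines, but was not among the members called in ntESC GFP. It was at 109 TPM in the fibroblasts and at 364 to 443 TPM in control ESCs. In ntESC WT it had 257, 366 and 580.1 TPM, and in ntESC GFP 524, 644, 715 and 792 TPM.

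Other genes of the pathway were counted in the control EB comparison by family and pathway. Of the 13 subunit genes of the mitochondrial genome, 5 rose and 2 fell (limma), beside 20.7% and 35.9% of all genes, with a median log2 fold change of 0.64. ND4 went from 10.2 to 17.9 TPM in control ESCs to 37.0 to 57.3 TPM in control EBs (log2 fold change 1.97, limma adjusted p = 0.00015), ND6 rose by a log2 fold change of 1.68 and ND4L by 1.55, and ATP6 and ATP8 fell by 0.96 and 0.90. ND4L overlaps ND4 and ATP8 overlaps ATP6, so that the values of these genes are uncertain.

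Of the factors that copy and read that genome, TFAM, its packaging and transcription factor, fell from 39.6 ± 7.15 TPM (SD, n = 4) in control ESCs to 18.4 ± 3.02 TPM (n = 3) in control EBs (log2 fold change -1.10, limma adjusted p = 0.0016), and POLRMT, its RNA polymerase, fell by 1.01 (limma adjusted p = 0.0024). Of the 19 regulators tested 9 fell and 3 rose, beside 35.9% and 20.7% of all genes. PPRC1, a coactivator of the PGC-1 family, fell by 1.95 on the log2 scale, from 64.4 ± 3.5 TPM (SD, n = 4) to 16.7 ± 2.78 TPM (n = 3), MYC by 1.33 and NRF1, an activator of many subunit genes, by 0.74. The risers were EPAS1, a hypoxia-inducible factor, from between 15.6 and 23.6 TPM to between 512 and 733 TPM (log2 fold change 5.01, limma adjusted p = 4e-05), ESRRG, an estrogen-related receptor (3.78), from at most 0.292 TPM, and GABPA (0.43). ESRRA (0.29) and PPARGC1A (-0.97) did not pass.

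The next counts stand beside the 20.7% of all genes that were called higher and the 35.9% called lower in this comparison. Of 32 assembly and translation factors tested 5 rose and 12 fell (median log2 fold change -0.04), among them ACAD9, which complex I assembly needs (-2.25), LRPPRC, which stabilizes mitochondrial mRNAs (-1.38), and FMC1, a factor for the ATP synthase (1.45). Of 74 mitochondrial ribosomal proteins 11 rose and 38 fell (median -0.32), and of 14 enzymes of the cycle 2 rose and 7 fell (median -0.46), with DLST (-1.29), IDH3A (-1.26) and SUCLG1 (1.05) among them. Of 9 carriers tested, UCP2, a carrier of the mitochondrial inner membrane, rose (2.39), and VDAC2, SLC25A3 and VDAC3 fell (-0.55, -0.38 and -0.32). Proliferation markers fell in control EBs, 12 of 12, and their summed TPM went from between 2559 and 2854 to between 777 and 1120.3, with 2065 in ntEB GFP #24. The summed TPM of 14 measured genes of glycolysis and the hypoxia response went from between 8435 and 9019.5 to between 5221 and 5566, and was 8542 in ntEB GFP #24; of its genes 3 rose and 4 fell (median log2 fold change 0.45). The part of proliferation and glycolysis in the subunit results was not tested. Between ntESCs and control ESCs none of the 13 mitochondrial genes, 19 regulators, 14 cycle enzymes, 32 assembly factors or 9 carriers was called in WT (limma, 10 of 87 at an unadjusted p under 0.05) or GFP (16 of 87). No share of all genes at an unadjusted p is given beside the 10 and the 16.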

How the data were processed

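RNA from 20 libraries (TruSeq stranded mRNA kit, 100 bp reads, 2 NovaSeq models with the model per library not given) was processed by the authors before deposit. Per the study's methods and the submitters' processing notes, reads were trimmed with fastp 0.20.1, aligned with STAR 2.7.8a to calJac4 with 1 location and at most 1 mismatch allowed, and counted with featureCounts (subread 2.0.6), with sex chromosomes left out. The authors deposited TPM values in 1 table for stem cells and fibroblasts (22330 genes) and 1 for EBs (22803 genes), each library summing to 1000000. The annotation is not given in the sources used here, nor is the strand setting, so subunit genes with near-identical copies and overlapping or antisense genes are uncertain. Depth is unknown and no counting interval is given.

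Groups were taken from the library names. Fits used limma 3.58.1 (R 4.3.3; lmFit, contrasts, eBayes with trend, two-sided) on log2(TPM + 0.1), keeping every gene whose mean reached 0.5 TPM, so that fold changes of low genes are understated. The 3 genes placed on X or Y were dropped and p-values were adjusted by Benjamini-Hochberg over all genes, with calls at 0.05. The stem cell fit had 11 libraries and 16118 genes, the EB fit 8 and 16621, and the joint fit for EBs against stem cells 19 and 16545. The tables were deposited separately, so table and stage cannot be told apart. A line is the replicate, so a p-value covers only line-to-line spread. The line number marks the same cell line at both stages, and deviations of the 8 pairs correlated between 0.033 and 0.26, so line was tried as a block over 16 libraries. Other alternatives were the pseudocount, the filter, quantile normalization, median scaling, leaving out each library, the sum without the most abundant member and TPM without mitochondrial genes. The members and lists were chosen with earlier results of these data known. Values were given in full for the 3 members with the largest change in each direction among those called in a comparison (with none called, the 3 with the smallest adjusted p), for isoform groups and for the member highest in each complex. Other members were named where a count or a role required it. One member enters the counts and sums and is not reported here by name. By symbol, 62 of 65 members matched the reference annotation. The fits were tested on simulated data. Python 3.11.15, pandas 2.3.3, numpy 2.4.6, scipy 1.17.1 and matplotlib 3.10.9 were used.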

Additional observations from a re-analysis of the deposited data

Results flagged for a closer look

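Dixon's criterion was applied to 144 groups, of single members and of sums per complex, over all members and over the mitochondrial genome genes. In 7 of the 144, all of single members, 1 line stood far from the others, which chance meets in about 1 of 20 groups. In control ESCs these were NDUFB6 at 212 TPM and COX8C at 0.447 TPM in line #37, and COX6A2 at 7.93 TPM in line #15. In ntESC GFP they were NDUFA12 at 146.9 TPM, ATP5MF at 454.9 TPM and ATP5MG at 254 TPM in line #24, and NDUFA10 at 11.1 TPM in line #54. NDUFB9 and NDUFB10 differed between the 2 kinds of clone, with ntESC WT below ntESC GFP by log2 fold changes of -0.91 and -0.84 in limma's test of that difference, and both calls were lost without ntESC GFP #55.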

How the results depend on the processing

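Of the counts of called members, 70 of 78 stayed within 1.5 times of their value. These were the alternatives that kept every library or left out a whole line or pair of lines. The 70 include counts of 0 that stayed 0, such as both ntEB groups against control EB with quantile normalization or median scaling. No called member turned direction under any alternative. In ntESC WT against control ESC the count of 1 was 0 with a filter at 5 TPM, 0 with median scaling and 0 without ntESC WT #30 and #53, and in ntESC GFP the count of 5 was 3 with median scaling and 8 without these lines. Between the clones the count of 2 became 0 without them. In ntEB GFP against ntESC GFP the count of 18 fell to 6 once line entered as a replicate block, and to 7 in the same 16 libraries with no block. The block moved no other count of calls by over 1.5 times. Leaving out each library in turn gave 0 to 8 calls for ntESC WT, 0 to 7 for ntESC GFP, 0 to 15 between the clones, 0 to 2 for ntEB GFP against control EB, 2 to 24 for ntEB GFP against ntESC GFP, and 0 to 4 and 0 to 9 for the differences of response in WT and GFP. Of all genes, 0.0186% were called in ntESC WT with the filter at 5 TPM and 0.0807% with median scaling. In ntESC GFP 0.267% were called with median scaling. The other counts have no share of all genes beside them and show only how far the calls depended on the processing and on single libraries. The next ratios of summed TPM leave out the most abundant member, so that complex IV is mostly COX8A. In control EB over control ESC the ratio was 1.28 for complex II, 1.26 for complex III, 1.61 for complex IV and 1.49 for complex V. In ntEB GFP over ntESC GFP it was 1.04, 1.08, 1.27 and 1.02 in the same order. In ntESC WT over control ESC it was 1.00 for complex III and 1.12 for complex IV, in ntESC GFP over control ESC 1.03, 1.22 and 1.26 for complexes III, IV and V, and in ntEB GFP over control EB 0.955 and 0.863 for complexes IV and V. Leaving out single libraries moved the ratio of complex II in ntESC WT over control ESC between 1.06 and 1.151, and that of ntEB GFP over control EB between 0.809 and 0.911 for complex III and between 0.865 and 0.934 for complex V. The causes were not tested. TPM keep no depth, so how far it limits the low members, such as COX8C and NDUFA4L2, is unknown.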
